A study of Homo sapiens with 58 samples.

Results

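HER2-amplified, ER-negative breast cancer cell lines were compared with triple-negative lines of the basal A class. The lines were chosen by name and by their published subtype. The HER2-amplified side holds SKBR3, AU565, UACC893, HCC1954 and HCC1569, and the basal A side holds HCC70, HCC1143, HCC1937, HCC1806, HCC1187, MDAMB468 and BT20. These are 12 of the 58 lines of the series. SKBR3 and AU565 are reported to come from the same patient and were averaged into 1 unit, which leaves 4 units against 7.

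Baseline mRNA was measured with 1 custom Affymetrix array per line in untreated cells grown as the vendor recommends. All values below are log2 intensities after RMA, so a difference of 1 is a doubling, and each gene was read by its brightest probe set that names a single gene. No line was measured again, so SDs and p-values reflect the spread between lines, and the number of arrays limits the precision. The labels name the lines and state no subtype, and published classes of these lines rest partly on expression. In those classes HCC1569 and HCC1954 are called basal although HER2-amplified, and SKBR3, AU565 and UACC893 are called luminal. The sides are thus not separate expression classes. An established line stems from the tumour of 1 patient and holds no stroma or immune cells, so a line is a model of tumour cells alone.

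ERBB2 encodes HER2, a receptor tyrosine kinase without a known ligand that signals in pairs with EGFR, ERBB3 or ERBB4. In HER2-amplified tumours a segment of chromosome arm 17q that carries ERBB2 is present in many copies, and neighbouring genes are copied with it. Basal A lines resemble the basal-like tumour class, with keratins of the basal epithelial layer and, often, high EGFR.

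The labels of the lines were first set against marker genes. ERBB2 mRNA was 13.50 in SKBR3, 13.70 in AU565, 13.69 in UACC893, 13.66 in HCC1954 and 13.68 in HCC1569. In the basal A lines its lowest value was 9.87 in HCC1806, its median 10.54 and its highest 12.17 in HCC1187. Every HER2-amplified line lay above every basal A line. PGR, the progesterone receptor, was at 2.87 or lower in all 12 lines. ESR1, the estrogen receptor gene, was not at such a floor: its values were 6.80 in the SKBR3 and AU565 mean, 9.18 in UACC893, 8.60 in HCC1954 and 3.89 in HCC1569, against 7.32 to 10.64 in the basal A lines and up to 12.73 elsewhere in the series. These values come from the brightest of 4 ESR1 probe sets. Another differed by −1.92 between the sides, and the dimmer ones by −0.02 and −0.19. The ER-negative label therefore describes published receptor status, and ESR1 transcript levels overlapped between the sides.

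The ERBB2 difference was 2.92 on the log2 scale (SE 0.412), from 13.66 ± 0.041 (SD, n = 4) in the HER2-amplified units to 10.74 ± 0.879 (SD, n = 7) in the basal A lines. With the moderated test of limma over all 12851 genes tested, its adjusted p (Benjamini-Hochberg) was 0.0581 and missed the threshold of 0.05. The exact two-sided permutation test on this gene alone gave p = 0.00303, the smallest that the 330 splits of 11 units allow, and 0.00606 after adjustment over the 2 marker genes tested in this way. A high ERBB2 level is part of how the HER2-amplified side was chosen. The p-values for ERBB2 are therefore a description and give no independent support. Without HCC1187, the basal A line with the highest ERBB2, the difference was 3.16 with a limma adjusted p of 0.00803, and without BT20 it was 3.05 with 0.0365. The 4 units spanned only 13.60 to 13.69 on the single ERBB2 probe set, while GRB7 spanned 10.28 to 12.50 in the same units, and an upper limit in the response of the ERBB2 probe set was not tested.

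Over all genes, 2 were higher in the HER2-amplified units (0.0156% of those tested) and 1 was lower (0.00778%) at an adjusted p under 0.05, 3 genes in all (0.0233%). They were MIEN1, the gene next to ERBB2, GRB7, which follows MIEN1, and NIBAN1. At an unadjusted p under 0.05, 416 genes were higher (3.24%) and 497 were lower (3.87%). All 4 units lay above all 7 basal A lines for 86 genes (0.669%) and below them for 47 genes (0.366%). The median difference over all genes was 0.02, and 432 genes differed by more than 2 on the log2 scale.

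**Figure D1:**
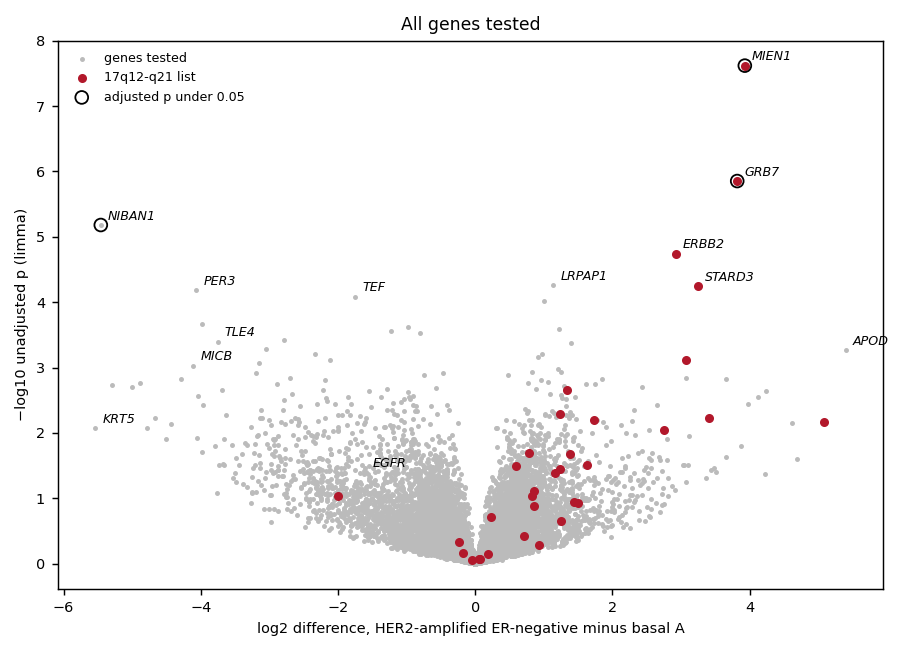
Log2 difference between the HER2-amplified ER-negative units and the basal A lines (horizontal axis) against the unadjusted limma p on a −log10 scale (vertical axis), 1 point per gene for the 12851 genes tested. Red points are genes of the 17q12-q21 list, and black rings mark MIEN1, GRB7 and NIBAN1, whose adjusted p was under 0.05.

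MIEN1 encodes a small membrane-anchored protein that promotes cell migration, and its gene lies beside ERBB2. It was 12.64 in SKBR3, 12.38 in AU565, 13.38 in UACC893, 13.42 in HCC1954 and 13.04 in HCC1569, against a lowest value of 8.31, a median of 9.09 and a highest value of 9.77 in the basal A lines. The groups did not overlap, and the gap between them was 2.74 at its narrowest. MIEN1 was higher by 3.93 (SE 0.287, limma adjusted p = 0.000309), a 15.2-fold difference in intensity.

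GRB7 encodes an adaptor that binds activated HER2 through its SH2 domain. It was 11.16 in SKBR3, 11.99 in AU565, 12.50 in UACC893, 12.44 in HCC1954 and 10.28 in HCC1569, against 7.16, 8.02 and 8.31 as the lowest, median and highest basal A values. HCC1569 was the lowest of the amplified lines and still stood above every basal A line. The difference was 3.82 (SE 0.413, limma adjusted p = 0.00898), and without the SKBR3 and AU565 unit it was 3.86 with an adjusted p of 0.0617. HCC1187, the basal A line with 12.17 for ERBB2, had 8.16 for GRB7 and the lowest MIEN1 of the 7, at 8.31.

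NIBAN1 encodes a cytosolic protein induced by cell stress, and it was the gene that fell. Its level was 4.33 in SKBR3, 3.49 in AU565, 4.73 in UACC893, 4.18 in HCC1954 and 5.94 in HCC1569, against a lowest value of 8.16, a median of 9.61 and a highest value of 11.65 in the basal A lines. The amplified lines were all low and the groups did not overlap. NIBAN1 fell by 5.46 on the log2 scale (SE 0.691, limma adjusted p = 0.0282). Among the HER2-amplified units only HCC1569 exceeded the array median, so NIBAN1 was bright enough to test through the basal A lines. Its direction was favoured by that filter and is no support in itself. Without HCC1806, HCC1937, HCC70, MDAMB468, UACC893 or the SKBR3 and AU565 unit, each in turn, the adjusted p lay above 0.05 and reached at most 0.192. The other 2 probe sets for NIBAN1 differed by −4.49 and −2.18, and with the mean of the 3 the adjusted p was 0.188. In the HER2-amplified ER-positive lines NIBAN1 was not low throughout: it was 10.44 in MDAMB361, 10.52 in ZR7530, 12.15 in EFM192A, 11.48 in EFM192C and 6.21 in EFM192B.

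**Figure D2:**
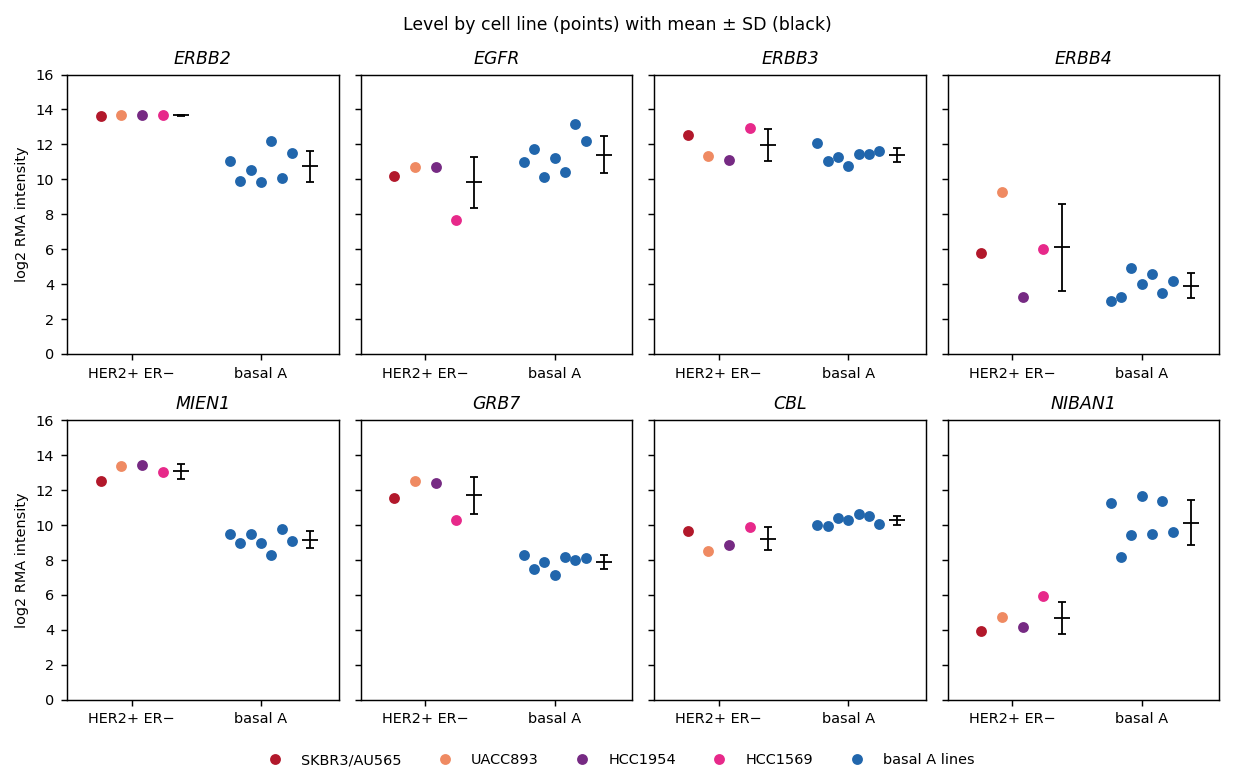
Log2 RMA intensity of 8 genes (vertical axis) in the 4 HER2-amplified ER-negative units, coloured by line, and the 7 basal A lines, in blue, with the mean ± SD of each side in black. ERBB2, MIEN1 and GRB7 stand above and CBL and NIBAN1 below the basal A lines without overlap, while EGFR, ERBB3 and ERBB4 overlap.

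At the gene starts given by RefSeq, ERBB2 shares a start region with PGAP3, a gene for an enzyme that remodels the lipid anchor of surface proteins. The windows of both genes are shown because the genes are read in opposite directions from it and yet differed between lines. Each window runs from 250 bases before to 50 bases after the gene's start in the RefSeq annotation of GRCh38.p14, and capitals mark the 136 bases that both hold, each written 5′ to 3′ on its own gene's strand. ERBB2 lies on the plus strand (chr17:39687844-39688143) and PGAP3 on the minus strand (chr17:39688008-39688307), with their starts 37 bases apart.
ERBB2: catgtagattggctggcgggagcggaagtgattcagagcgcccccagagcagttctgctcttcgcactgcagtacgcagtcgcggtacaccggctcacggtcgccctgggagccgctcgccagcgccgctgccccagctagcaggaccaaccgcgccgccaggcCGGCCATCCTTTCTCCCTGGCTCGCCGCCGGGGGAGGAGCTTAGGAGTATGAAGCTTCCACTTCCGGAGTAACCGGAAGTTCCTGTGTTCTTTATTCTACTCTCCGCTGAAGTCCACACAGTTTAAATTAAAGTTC
PGAP3: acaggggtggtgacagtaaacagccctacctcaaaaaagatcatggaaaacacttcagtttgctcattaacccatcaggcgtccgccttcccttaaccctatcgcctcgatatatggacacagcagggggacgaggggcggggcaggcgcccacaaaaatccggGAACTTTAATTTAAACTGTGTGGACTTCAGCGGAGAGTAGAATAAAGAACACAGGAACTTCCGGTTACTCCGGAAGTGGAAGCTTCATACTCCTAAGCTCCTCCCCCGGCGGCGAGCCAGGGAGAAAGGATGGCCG
The letters CCGGAAGT, a core recognised by ETS family factors, occurred 1 time on each strand within both windows, and 4.14% of the 35116 RefSeq promoter windows of this length hold them on either strand. These matches lie in the shared capitals, so both windows hold the same sites. CCAAT was found 1 time in the ERBB2 window, on the reverse strand, and not in the PGAP3 window (34.6% of all windows hold it). TATAAA was in neither (11.5% of all windows). A match of letters is a description and shows no binding. Only the window at the annotated gene start was examined, and other transcript starts of ERBB2 were not.

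PGAP3 was 10.48 in the SKBR3 and AU565 mean, 10.89 in UACC893 and 12.01 in HCC1954, but 6.42 in HCC1569. The basal A lines spanned 5.99 to 7.995. HCC1569 thus had ERBB2 at the level of the other amplified lines and PGAP3 inside the basal A range. The difference over the 4 units was 2.75 (SE 0.871) and did not pass the test (limma adjusted p = 0.604).

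The 17q12-q21 list holds 42 genes in reference order around ERBB2, of which 33 were bright enough to test. Besides MIEN1 and GRB7 no gene passed the adjusted threshold, and 17 had an unadjusted p under 0.05 on the higher side against 0 on the lower. Over all genes these shares were 3.24% and 3.87%. Of the 33 genes, 29 had a positive difference, beside 6687 of 12851 over all genes. Their median difference was 1.23, beside 0.02 over all genes. The 5 without overlap were MIEN1, GRB7, ERBB2, STARD3 and TCAP, beside 0.669% of all genes on the higher side. The lines were chosen for HER2 amplification, so a high level around ERBB2 is part of what defines them, and the extent of the high run differed from line to line.

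The extent was described by counting genes that exceeded the highest basal A line by more than 1 on the log2 scale. UACC893 had 18 such genes of 33, beside 2.22% of all genes. The SKBR3 and AU565 mean had 14, beside 1.64%. HCC1954 had 8, beside 0.514%, and HCC1569 had 5, beside 2.01%.

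In HCC1569 the 5 genes were PPP1R1B, STARD3, ERBB2, MIEN1 and GRB7. STARD3, which encodes a cholesterol-binding protein of late endosomes, was 8.49 in HCC1569, 10.45 in the SKBR3 and AU565 mean, 11.20 in UACC893 and 11.99 in HCC1954, against 7.11 to 7.43 in the basal A lines. It did not overlap between the sides (difference 3.25, SE 0.520, limma adjusted p = 0.120). PPP1R1B, which encodes the protein phosphatase inhibitor DARPP-32, was highest in HCC1569 at 13.66 and in UACC893 at 13.56, but the basal A line HCC1937 reached 10.41, above 9.34 in HCC1954 and 8.38 in the SKBR3 and AU565 mean.

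On the far side of GRB7, HCC1569 was back in the basal A range at the next tested gene. GSDMB, which encodes a pore-forming gasdermin, was 6.67 in HCC1569, 11.66 in HCC1954, 11.44 in UACC893 and 12.78 in the SKBR3 and AU565 mean, against 5.70 to 8.90 in the basal A lines. ORMDL3, a brake on sphingolipid synthesis, was 9.61, 13.14, 13.20 and 10.93 in the same order, against 7.58 to 9.75. HCC1954 was thus high through ORMDL3. At the next tested gene, PSMD3, which encodes a proteasome subunit, it stood at 10.73 beside a basal A maximum of 10.94. GSDMA lies between them and was too dim to test, at 8.14 in HCC1954 and at most 4.05 in the basal A lines. Further on, HCC1954 exceeded the highest basal A line by less than 1 at CASC3 (12.08 against 11.99) and CDC6 (12.02 against 11.76). It also did so at TOP2A (11.885 against 11.841) and SMARCE1 (11.555 against 11.15).

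PSMD3 remained high in UACC893 at 13.43 and in the SKBR3 and AU565 mean at 12.28. Further along, both units also stood above the basal A lines at MED24 (11.81 and 10.82, against at most 9.496), CASC3 (13.47 and 13.03, against at most 11.99) and WIPF2 (13.28 and 12.20, against at most 10.58). The stretch was not unbroken in the SKBR3 and AU565 mean, where THRA at 9.31, NR1D1 at 8.65 and RAPGEFL1 at 9.21 lay inside the basal A range, whereas UACC893 exceeded it at all 3, with 11.56, 11.002 and 10.38. CDC6, a replication licensing factor, was 13.19 and 12.59 against at most 11.76, so only UACC893 exceeded that line by more than 1. On the other side, MED1, a Mediator subunit, was 12.18 and 12.19 against at most 9.99, while HCC1954 at 9.41 and HCC1569 at 9.90 lay within the basal A range. CDK12, a transcriptional kinase, was 12.15 and 12.07 against at most 10.59, with 10.66 in HCC1954 and 9.38 in HCC1569. Further out, TOP2A, the topoisomerase often copied or lost with ERBB2, was 12.11 in the SKBR3 and AU565 mean and 9.47 in UACC893, against 10.94 to 11.84 in the basal A lines.

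**Figure D3:**
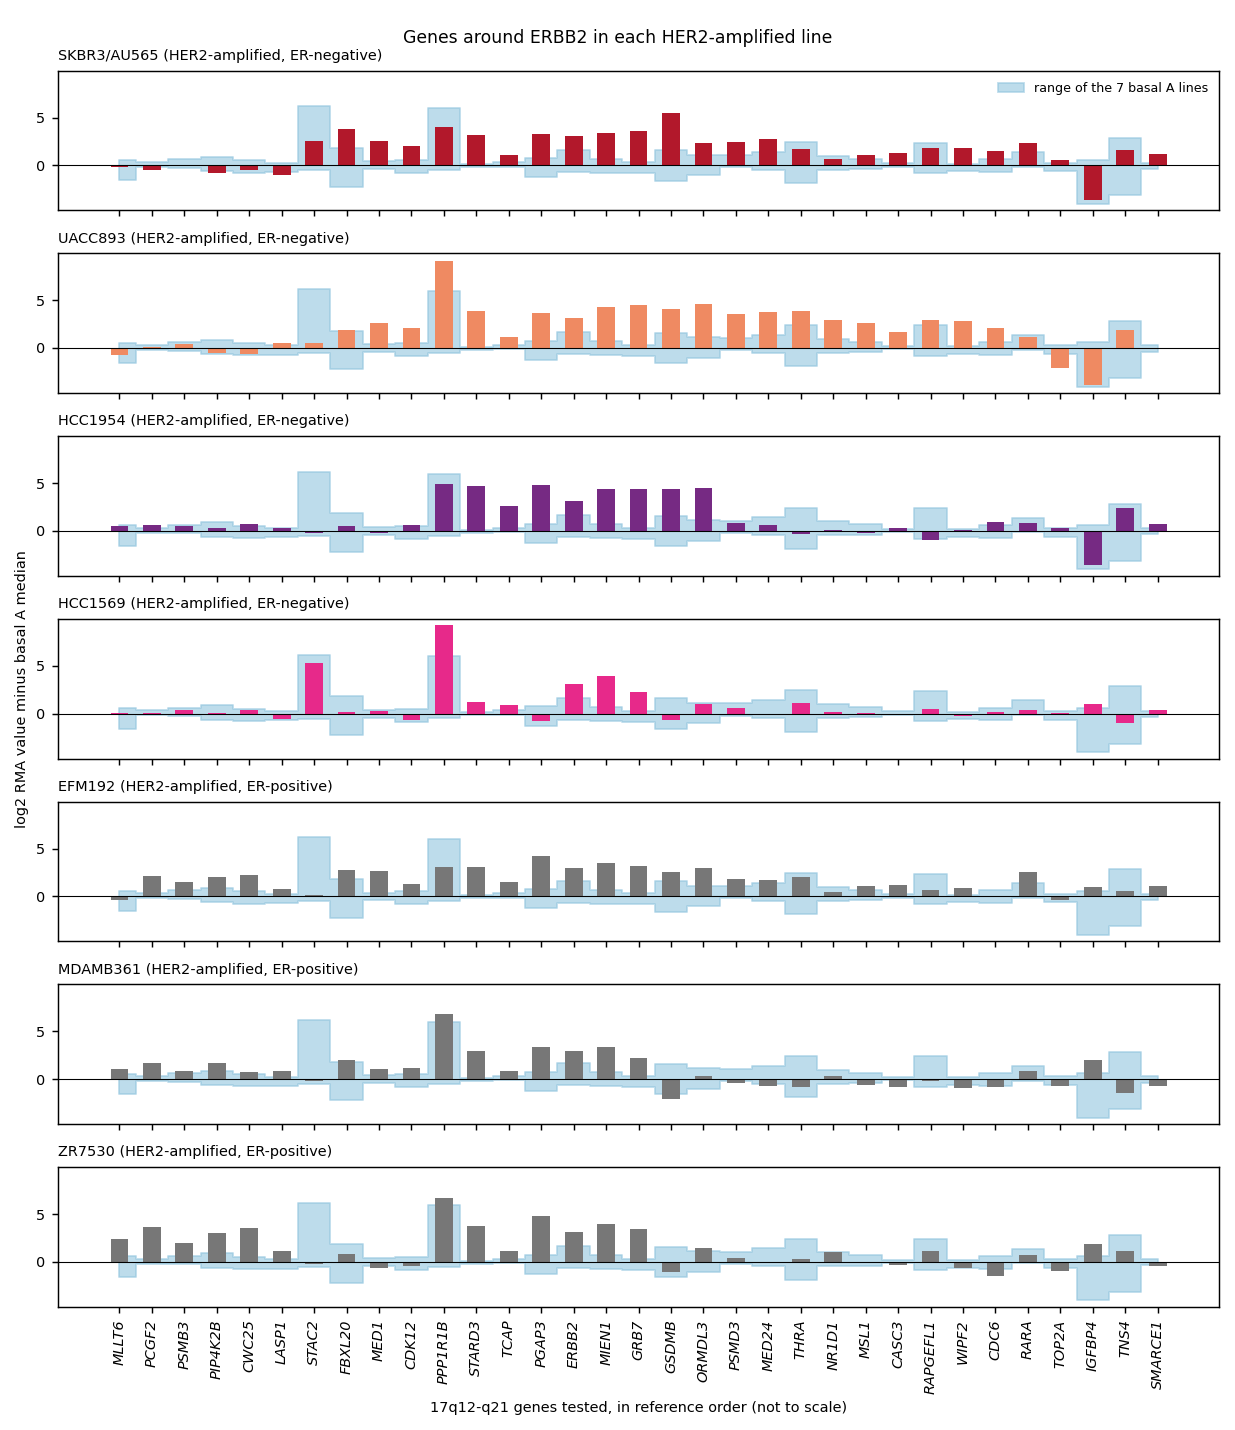
Log2 RMA value minus the basal A median (vertical axis) for the 33 tested 17q12-q21 genes in reference order (horizontal axis, not to scale), 1 panel per HER2-amplified unit, with the range of the 7 basal A lines shaded in blue. Counted by genes more than 1 above the highest basal A line, the run is short in HCC1569 and ends after ORMDL3 among tested genes in HCC1954. It reaches further in UACC893 and, with genes inside the basal A range between, in SKBR3/AU565.

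HER2-amplified ER-positive lines, which the comparison above did not use, were set against the same 7 basal A lines in a fit of their own. These were EFM192A, EFM192B and EFM192C, averaged into 1 unit, MDAMB361 and ZR7530. The 2 comparisons share the basal A lines. In this fit 105 genes were higher (0.824%) and 124 lower (0.973%), and 9 of the 17q12-q21 genes were higher at a limma adjusted p under 0.05: STARD3, PGAP3, MIEN1, GRB7, ERBB2, PCGF2, PSMB3, PIP4K2B and LASP1. Without ZR7530 the count was 5. Genes above the highest basal A line by more than 1 numbered 13 of 33 in the EFM192 unit (1.34% of all genes), 11 in ZR7530 (2.1%) and 7 in MDAMB361 (2.61%). PCGF2, a Polycomb subunit on the side of the list before MED1, was 10.21 in the EFM192 unit, 9.70 in MDAMB361 and 11.64 in ZR7530, but 7.57 to 8.62 in the ER-negative units and 7.85 to 8.37 in basal A lines.

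Among the other ERBB receptors, EGFR was 9.80 in SKBR3, 10.62 in AU565, 10.72 in UACC893, 10.72 in HCC1954 and 7.65 in HCC1569. In the basal A lines its lowest value was 10.15 in HCC1937, its median 11.23 and its highest 13.18 in MDAMB468, followed by 12.22 in BT20. The groups overlapped, with only HCC1569 well below the rest. The difference was −1.59 (SE 0.687, limma adjusted p = 0.677), and the exact two-sided permutation test gave p = 0.0576. EGFR was thus not separated from basal A levels in HCC1954, UACC893 or the SKBR3 and AU565 mean.

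LANCL2, the gene next to EGFR in the 7p11 list, was highest in the same lines, at 12.79 in MDAMB468 and 11.34 in BT20, against 8.50 to 10.56 in the other basal A lines and 8.75 to 9.97 in the HER2-amplified units. CCT6A and SUMF2, which lie further along the list, differed by −0.15 and 0.00 between the sides. Of the 8 measured genes of this list 5 were tested and none passed the adjusted threshold, with EGFR the 1 gene at an unadjusted p under 0.05. Over all genes 3.87% were lower at that level.

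ERBB3, the receptor that carries most PI3K docking sites and pairs with HER2, was 12.53 in the SKBR3 and AU565 mean, 11.31 in UACC893, 11.10 in HCC1954 and 12.93 in HCC1569, against 10.78 to 12.08. The difference of 0.58 had an interval of −0.21 to 1.37 (95%, unadjusted) and did not pass the test (limma adjusted p = 0.752). On the ERBB3 probe set with the highest SD it was −0.14, and on the remaining ones it was 0.585, 0.739 and 1.08. ERBB4 was 5.76, 9.30, 3.29 and 6.04 in the same units, against 3.02 to 4.93, so that 3 of 4 units lay above the basal A range and HCC1954 inside it (difference 2.18, SE 0.904, limma adjusted p = 0.677). ERBB4 was bright enough to test only through these 3 units, so its direction was set by that filter and is no support.

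The list of ligands held 7 tested genes of 9 measured, with 2 positive and 5 negative differences, and none passed the test (median −0.81). TGFA, an EGFR ligand, was 3.12 in SKBR3, 3.22 in AU565, 9.74 in UACC893, 9.54 in HCC1954 and 6.78 in HCC1569, against 8.20 to 11.71 in basal A lines. SKBR3, AU565 and HCC1569 were low, and the other 2 lay inside the basal A range. EGF itself was 8.86 in the SKBR3 and AU565 mean, 7.95 in UACC893, 8.18 in HCC1569 and 6.59 in HCC1954, against 3.10 to 7.72 (difference 1.73, SE 0.837, limma adjusted p = 0.695). EREG, BTC, HBEGF, NRG1 and NRG2 differed by −1.57, −0.07, −0.96, −0.80 and 0.18. NRG3 and NRG4 did not reach the level for testing.

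Of 12 adaptors and inhibitors of the receptors, all tested, GRB7 rose and none fell. CBL, a ubiquitin ligase that marks activated EGFR for breakdown, was 9.64 in the SKBR3 and AU565 mean, 8.53 in UACC893, 8.87 in HCC1954 and 9.88 in HCC1569, against 9.94 to 10.65. Every unit lay below every basal A line, but the difference of −1.04 (SE 0.277) did not pass over all genes (limma adjusted p = 0.531). The general adaptors GRB2 and SHC1 differed by 0.04 and −0.02, with unadjusted 95% intervals of −0.45 to 0.53 and −0.79 to 0.75. The feedback inhibitor ERRFI1 differed by −0.10, the phosphatase PTPN12 by −0.04, and GAB1, PIK3R3, LRIG1, LRIG3, RNF41 and SOCS3 by −0.37 to 0.88.

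No member of the lists for lineage, metabolism, cell cycle or immunity passed the adjusted threshold. Their medians hid opposite values within the HER2-amplified side, which the list plot shows by line. The SKBR3 and AU565 mean and UACC893 often stood apart from HCC1954 and HCC1569. Over all genes, 83.1% of values in HCC1954 lay within the basal A range, against 72.7% in HCC1569, 71.0% in the SKBR3 and AU565 mean and 69.6% in UACC893. By sign, 6687 of the 12851 genes had a positive and 6157 a negative difference, the background for the counts by sign below. A gene that was dim on 1 side could be bright enough to test through the other side, and the filter then favoured its sign. The counts by sign hold such genes. The mean Pearson r over genes of HCC1954 was 0.8293 with the basal A lines and 0.8041 with the other HER2-amplified units, whereas for SKBR3 and AU565 it was 0.7718 and 0.8054. For HCC1569 these were 0.7724 and 0.7527, and for UACC893 0.7555 and 0.7897. Among the basal A lines, BT20 alone correlated less with the other basal A lines (0.7958) than with the HER2-amplified units (0.8065). These correlations are across genes within arrays of 1 normalization, and genes are not independent replicates.

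**Figure D4:**
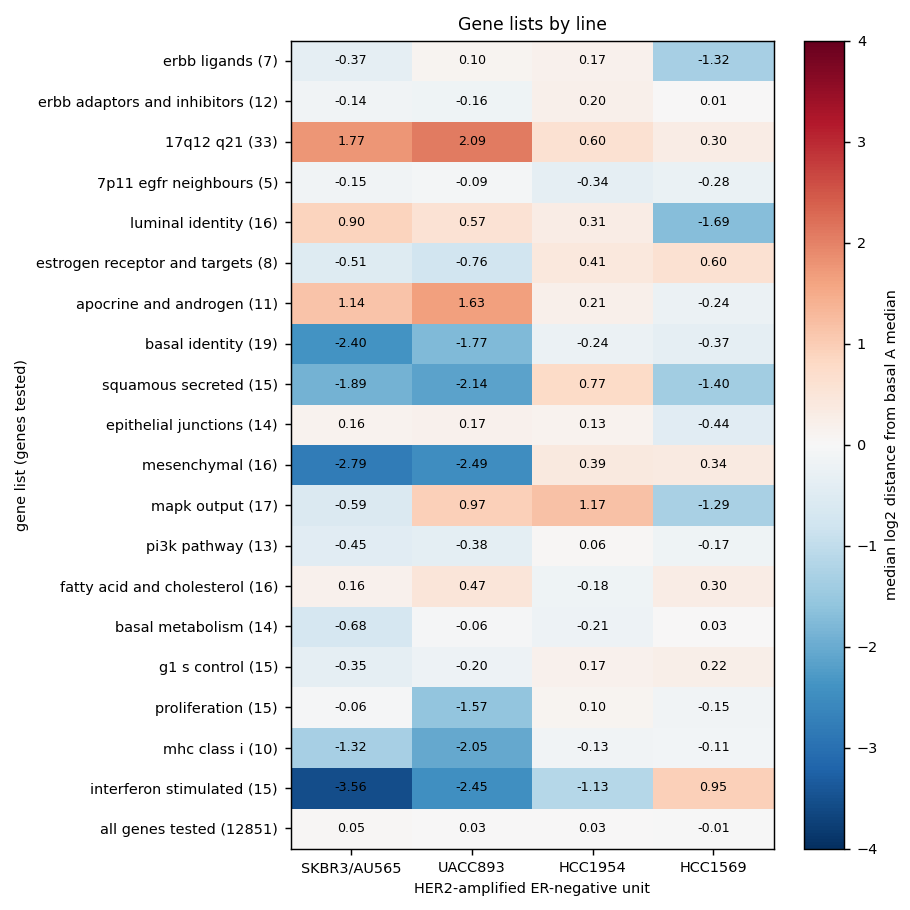
Median over the tested genes of each list (rows, with the number of genes) of the log2 distance from the basal A median, for each HER2-amplified ER-negative unit (columns). The mesenchymal list is at −2.79 in SKBR3/AU565 and −2.49 in UACC893 but at 0.39 in HCC1954 and 0.34 in HCC1569, and all genes together are between −0.01 and 0.05.

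The basal identity list had 15 of 19 tested genes with a negative difference (median −0.82). Its median distance from the basal A lines was −2.40 in the SKBR3 and AU565 mean and −1.77 in UACC893, but −0.24 in HCC1954 and −0.37 in HCC1569. KRT5, a basal keratin, was 5.34 in the SKBR3 and AU565 mean, 3.76 in UACC893, 4.21 in HCC1569 and 12.04 in HCC1954. In the basal A lines it was 6.04 in HCC1143 and 12.39 to 13.49 in the other 6. HCC1954 thus stood with most basal A lines, and HCC1143 did not (difference −5.54, SE 1.74, limma adjusted p = 0.585).

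SFRP1, a secreted WNT inhibitor of that list, gave another order, with 12.56 in HCC1569 and 2.92 to 3.57 in the other units, against 3.98 to 12.09. SOX10, a transcription factor of the basal identity list and also of the melanocyte list, was 11.18 in HCC1569 and 3.64 to 4.95 in the other units and lines. It did not reach the level for testing and was picked after its values were seen. KIT and DSC3 were low in all 4 units, at most 4.45 and 5.97, but the basal A lines spanned 3.58 to 11.51 and 3.34 to 11.53. SFRP1, KIT and DSC3 were bright enough to test only with the basal A lines, so their negative differences were favoured by the filter.

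The squamous secreted list, which includes kallikrein proteases, had 12 of 15 genes with a negative difference (median −1.20). KLK5 was 4.75 in the SKBR3 and AU565 mean, 6.36 in UACC893, 6.46 in HCC1569 and 13.64 in HCC1954, against 12.38 to 13.72 in all 7 basal A lines. HCC1954 alone matched the narrow basal A range. The difference of −5.30 (SE 1.31) did not pass over the 4 units (limma adjusted p = 0.501). It was −7.55 with both HCC1954 and HCC1569 left out. That choice drops the line at basal A levels, so the larger difference is no support. KLK6, KLK7 and KLK10 were likewise highest in HCC1954 among the 4 units, at 13.16, 9.74 and 9.65. KLK7 and KLK10 were bright enough to test only with the basal A lines, so the filter favoured their negative differences.

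The mesenchymal list had 14 of 16 genes with a negative difference (median −1.16). MSN, which encodes the actin linker moesin, was 3.33 in SKBR3, 8.18 in AU565, 9.53 in UACC893, 12.86 in HCC1954 and 13.19 in HCC1569, against 12.14 to 13.12. SKBR3 and AU565 themselves were 4.85 apart. VIM, vimentin, was 3.89 in the SKBR3 and AU565 mean, 5.70 in UACC893, 11.65 in HCC1954 and 13.27 in HCC1569, against 8.06 to 13.55, and it was picked after its values were seen. CDH1, the main epithelial cadherin, was 4.42 in SKBR3 and 3.70 in AU565, but 12.09 to 13.03 in the other units and 11.83 to 13.05 in the basal A lines. Its difference of −1.90 rested on that pair and was 0.25 without it.

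**Figure D5:**
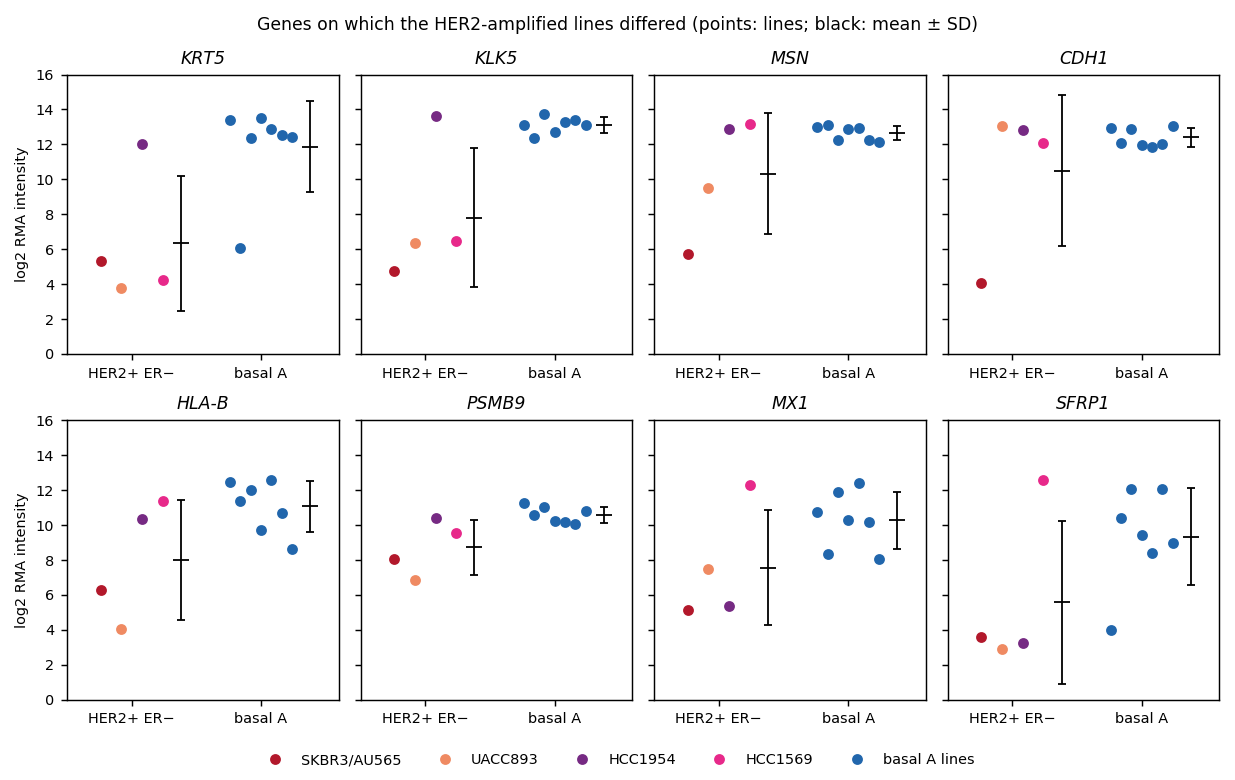
Log2 RMA intensity of 8 genes (vertical axis) in the 4 HER2-amplified ER-negative units, coloured by line, and the 7 basal A lines, in blue, with the mean ± SD of each side in black. KRT5 and KLK5 are high in HCC1954, SFRP1 and MX1 in HCC1569, MSN and HLA-B in both, and CDH1 is low in SKBR3/AU565.

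The luminal identity list was mixed, with 12 of 16 genes positive (median 0.36) and 1 gene at an unadjusted p under 0.05. Over all genes 3.24% were higher at that level. SPDEF, a luminal ETS factor, was 11.61 in the SKBR3 and AU565 mean, 11.45 in UACC893, 9.89 in HCC1954 and 6.09 in HCC1569, against 5.40 to 10.65 in the basal A lines. FOXA1 was 12.63 to 13.04 in the first 3 units and 6.94 in HCC1569, against 8.61 to 12.46. GATA3, also a luminal factor, went the other way, with 6.06 to 10.29 in the units against 7.65 to 10.88.

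The apocrine list, genes of sweat-gland-like and androgen-responsive breast epithelium, had 7 of 11 positive differences (median 0.93). FGFR4, a fibroblast growth factor receptor, was 7.88, 8.28, 8.46 and 8.12 in the SKBR3 and AU565 mean, UACC893, HCC1954 and HCC1569, against 6.40 to 7.27, without overlap (difference 1.40, SE 0.286, limma adjusted p = 0.322). The secretoglobin SCGB2A2, mammaglobin, was 12.40 in the SKBR3 and AU565 mean and 4.01 to 7.50 in the other units, against 3.46 to 8.70. Its relatives SCGB1D2 and SCGB2A1 were also highest in that mean, at 9.83 and 8.76, and at basal A levels in HCC1954, at 3.20 and 3.36. Both relatives were bright enough to test only through that mean, UACC893 and HCC1569, so their positive differences were set by the filter.

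All 10 tested genes of the MHC class I list, which present peptides to T cells, had negative differences (median −0.94). Of these, 5 had an unadjusted p under 0.05, beside 3.87% of all genes on the lower side, and none passed after adjustment. HLA-B was 5.47 in SKBR3, 7.16 in AU565, 4.04 in UACC893, 10.33 in HCC1954 and 11.38 in HCC1569, against 8.63 to 12.59. PSMB9, an immunoproteasome subunit, was 8.07 in the SKBR3 and AU565 mean, 6.84 in UACC893, 10.42 in HCC1954 and 9.56 in HCC1569, against 10.04 to 11.26. UACC893 lay below the basal A range for all 10 genes, beside 1876 of the 12851 genes tested. The SKBR3 and AU565 mean lay below it for 7, beside 1611 of all genes. HCC1954 lay inside it for all 10, beside 83.1% over all genes.

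The interferon-stimulated list had 14 of 15 negative differences (median −1.51). Its distance from the basal A median was −3.56 in the SKBR3 and AU565 mean, −2.45 in UACC893, −1.13 in HCC1954 and 0.95 in HCC1569. MX1, an antiviral GTPase, was 5.12, 7.48, 5.39 and 12.28 in these units, against 8.08 to 12.43, so that HCC1569 alone reached basal A levels. For IFIT3, HCC1954 at 8.95 and HCC1569 at 9.63 both lay within 7.63 to 10.44, with 4.08 and 4.63 in the others. No gene of this list had an unadjusted p under 0.05.

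For the output of the MAPK pathway, 9 of 17 genes were positive and 8 negative (median 0.15). SPRY4, a feedback inhibitor, was 8.39 to 9.84 in the units against 3.97 to 9.21, and DUSP6, a phosphatase of ERK, was 7.05 in the SKBR3 and AU565 mean and 10.76 to 12.48 in the rest, against 4.22 to 12.23. The PI3K, G1/S control and proliferation lists had medians of −0.51, 0.04 and −0.34 with no gene at an unadjusted p under 0.05. Within the proliferation list UACC893 lay below the basal A range for 12 of 15 genes, with MKI67 at 8.87 against 9.26 to 11.77. Over all genes it lay below that range for 1876 of 12851.

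Among fat and cholesterol genes, 11 of 16 were positive (median 0.33). ELOVL6, a fatty acid elongase, was 10.92, 10.85, 11.60 and 10.89 in the 4 units, against 6.89 to 10.70, without overlap (limma adjusted p = 0.676). MED1, which also belongs to the 17q12-q21 list, and PPARGC1B were the other members with an unadjusted p under 0.05, beside 3.24% of all genes on the higher side. In the list of basal metabolism, the serine synthesis genes PHGDH, PSAT1 and PSPH differed by −1.16, −0.94 and −0.90, each with overlap between the sides. PSPH differed by 0.01 on its probe set with the highest SD.

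The estrogen receptor list had 7 of 8 negative differences (median −1.19) and no unadjusted p under 0.05. BCL2 was 3.005, 2.06, 2.62 and 7.40 in the SKBR3 and AU565 mean, UACC893, HCC1954 and HCC1569, against 3.93 to 7.89. The epithelial junction list was even, with 7 positive and 7 negative differences. In the MHC class II list all 4 tested genes were negative (median −1.49), and CD74 was 5.98 to 8.47 against 5.67 to 11.99. HLA-DMB, at most 5.534 in the units, was bright enough to test only with the basal A lines, so the filter favoured its sign.

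Markers of other cell types were mostly below the level for testing: 3 of 10 measured fibroblast genes, 4 of 9 blood genes, 3 of 8 endothelial, 3 of 6 adipocyte and 3 of 7 melanocyte genes were tested, and none passed. The leukocyte gene PTPRC was at most 4.004 in the HER2-amplified units and 3.89 in the basal A lines. CD14, a myeloid receptor, was 8.72 in UACC893 and 4.93 to 5.33 in the other units, against 5.49 to 11.18. The melanocyte list includes SOX10, described above for HCC1569.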

How the data were processed

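The deposited values are log2 intensities of probe sets, which the authors computed by RMA, a method that corrects background, equalises arrays by quantiles and summarises probes, in Affymetrix Power Tools, per the submitters' processing notes, without stated versions. Of 52377 probe sets, 35184 name 1 gene in the platform annotation and were used, 374 name several and 16819 none. For each of 19798 genes the probe set with the highest mean over all lines was taken. Array medians of the 12 lines lay between 5.43 and 5.53.

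A gene was tested if it exceeded the array median in at least 3 of the 11 units. The sides were compared with limma 3.58.1 in R 4.3.3 (lmFit, then eBayes with trend and robust settings), with Benjamini-Hochberg adjustment over the 12851 genes and a threshold of 0.05. ERBB2 and EGFR were also tested by exact permutation. The steps were tested on simulated data. Of 100 genes shifted by 2 on the log2 scale 63 were recovered, and of 100 shifted by 4, 86. Values were drawn independently from normal distributions with the real genes' means and SDs, and all shifts were planted at once. These shares check the steps and do not give the power of the comparison. In the real data 432 genes differed by more than 2 and 3 genes were called. Among the unchanged genes 9 were called. The labels state no subtypes and no batches, and the grouping rests on published subtypes.

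The lines and gene lists were chosen with earlier results of these data known. The genes named are every member of the ERBB and chromosomal neighbour lists by value or count, up to 4 members of each other list with the smallest adjusted p, and the genes past the threshold without overlap. FOXA1, MKI67, VIM, PTPRC, SOX10 and the genes under other observations were chosen after their values were seen. Some genes of the lists were not analysed here.

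Alternatives were the probe set rule, a second quantile normalization, the filter, the units, the lines included, array quality as a term, the eBayes setting, the pooled spread and a test against a difference of 1.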

Additional observations from a re-analysis of the deposited data

Results flagged for a closer look

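In 15 of 154 groups checked (77 genes on 2 sides, 9.74%), 1 unit lay far from the rest of its own side, with a gap to its nearest neighbour that exceeded Dixon's 95% critical value; chance alone gives about 1 in 20. Among the 4 HER2-amplified units, HCC1569 was lowest for EGFR (7.65, next 10.21) and highest for SFRP1 (12.56, next 3.57) and IGFBP4 (10.54, next 5.98). HCC1954 was highest for TCAP (8.86, next 7.47), KLK10 (9.65, next 5.06) and ELOVL6 (11.60, next 10.92). UACC893 was lowest for YBX3 (11.42, next 12.23) and highest for CD14 (8.72, next 5.33). The SKBR3 and AU565 mean was lowest for CDH1 (4.06, next 12.09).

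Among the 7 basal A lines, HCC1143 was lowest for KRT5 (6.04, next 12.39), GATA3 (7.65, next 9.49) and HK2 (9.04, next 10.49). HCC1806 was highest for PSMD3 (10.94, next 10.10), BT20 lowest for IGFBP4 (5.52, next 8.66) and MDAMB468 highest for SCGB2A2 (8.70, next 4.10).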

How the results depend on the processing

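MIEN1 passed under all 24 alternatives, GRB7 under 22 and NIBAN1 under 15. Over 77 genes and their alternatives, 1776 of 1830 values kept direction and call, 39 gained the call, 11 lost it and 4 reversed. Only 3 of these genes were called as reported, so most kept values are genes that stayed uncalled. On the probe set with the highest SD, ERBB3 differed by −0.14, LRPAP1 by −0.12 and PSPH by 0.011, and without SKBR3 and AU565 CDH1 differed by 0.25. The cause of these shifts was not tested.

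The count of higher genes was 2 as reported, 17 with HCC1569 and HCC1954 left out, 5 with the 12 lines as units, 5 with the spread pooled with the ER-positive lines and 1 against a difference of 1. The count of lower genes was 1 as reported, 54, 3, and 0 under the first, second and last of these, 0 with the mean of probe sets and 2 with array quality as a term. With each unit left out in turn, higher genes numbered 1 (without SKBR3 and AU565) to 6 (without HCC1569) and lower genes 0 (without HCC1806, HCC1937, HCC70, MDAMB468 or the SKBR3 and AU565 unit) to 9 (without HCC1954), with 7 without BT20. The 17q12-q21 count in ER-positive lines was 5 (without ZR7530) to 9 with single units left out, and 10 with the mean of probe sets or the probe set with the highest SD.

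The ERBB2 difference passed with the stricter filter (2.92, limma adjusted p = 0.0338), the 12 lines as units (2.91, 0.0125) and the pooled spread (2.92, 0.00920), and ranged from 2.78 to 3.16 with single units left out (0.00803 to 0.305), with 3.05 without BT20. NIBAN1 had an adjusted p of 0.0704 with array quality as a term and 0.096 against a difference of 1, where GRB7 had 0.0839.

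No probe set that names a gene is marked for cross-hybridisation, so that alternative was not run. No paired analysis was possible because each line is a sample of its own and replicate numbers only name lines. With 4 units, and with 1 patient's tumour behind each, a difference that missed the threshold is not shown to be absent.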

Other observations

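With HCC1569 and HCC1954 left out, which leaves the SKBR3 and AU565 mean and UACC893 against the 7 basal A lines, 54 genes were lower and 17 higher at a limma adjusted p under 0.05. Of the 17 higher genes, 11 belong to the 17q12-q21 list. For 41 of the 54 lower genes the HCC1954 value lay inside the basal A range, and for 35 the HCC1569 value did. Over all genes tested the shares inside that range were 83.1% for HCC1954 and 72.7% for HCC1569, so these counts are not above the background. RCN1, which encodes a calcium-binding protein of the endoplasmic reticulum, was 7.17 in the SKBR3 and AU565 mean and 5.54 in UACC893, against 12.41 in HCC1954, 12.81 in HCC1569 and 11.53 to 12.86 in the basal A lines. LYN, a SRC family kinase, was 3.51 and 5.16, against 10.63, 10.62 and 9.13 to 11.72. TTC22 gave another order, with 3.03, 3.08 and 3.09 in the SKBR3 and AU565 mean, UACC893 and HCC1954, and 10.32 in HCC1569, against 8.99 to 11.07. These genes were chosen on this contrast, and the values are a description.

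Genes of the circadian clock were looked at after PER3 and TEF appeared among the smallest p-values. PER3, a period protein, was 3.75 in the SKBR3 and AU565 mean, 5.59 in UACC893, 7.20 in HCC1954 and 6.39 in HCC1569, against 8.28 to 11.10 in the basal A lines. TEF, a clock-controlled factor, was 7.64, 7.40, 7.95 and 8.63, against 9.09 to 10.22, and NR1D2, a clock repressor, was 10.91, 9.59, 10.84 and 10.58, against 11.07 to 11.78. None of the 3 overlapped between the sides, and none passed over all genes (limma adjusted p = 0.120, 0.133 and 0.529). Of all genes 0.366% lay below the basal A lines without overlap. Other clock genes differed in both directions, none past the test: NR1D1, the paralogue of NR1D2, differed by 0.86, with 11.002 in UACC893 against at most 9.01 in the basal A lines, HLF differed by 0.82, PER1 by −1.15, BHLHE41 by −1.75, BMAL1 by −0.54, BHLHE40 by −0.40 and NFIL3 by −0.16. PER2, CLOCK, CRY1, CRY2 and DBP differed by 0.01, 0.19, 0.09, 0.07 and 0.03. The set was not a fixed list. The hour at which cells were harvested was not used here.

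Other genes that came near the threshold, also picked by their p, were LRPAP1 (difference 1.14, limma adjusted p = 0.120), MRPL24 (1.01, 0.137), TMEM70 (1.23, 0.269), KMT2A (−0.98, 0.269), PHTF1 (−1.23, 0.269) and YBX3 (−0.80, 0.269), each without overlap. APOD, which encodes a lipid-binding secreted protein, was 11.41 in the SKBR3 and AU565 mean, 12.31 in UACC893, 12.30 in HCC1569 and 8.84 in HCC1954, against 3.70 to 9.19 (difference 5.40, SE 1.13, limma adjusted p = 0.365). MICB, a ligand of the NKG2D receptor of natural killer cells, was 3.93, 4.79, 7.33 and 9.37 in the same order, against 9.07 to 11.39. TLE4, a transcriptional corepressor, was 5.81, 3.78, 8.22 and 8.001, against 9.45 to 11.28, without overlap (limma adjusted p = 0.322).

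SKBR3 and AU565 correlated at r = 0.954 over the tested genes, and 1179 genes (9.17%) differed by more than 1 on the log2 scale between them.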
